A study of Saccharomyces cerevisiae with 5 samples.

Results

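GPD1, GPD2, GPP1 and GPP2 encode the enzymes of glycerol synthesis in budding yeast (Saccharomyces cerevisiae). These 4 genes were matched by open reading frame (ORF) and by the gene names in the scanner files, and are 4 of the 6205 ORFs on the arrays. All 4 had a value on all 5 arrays. The study asked how transcription responds to a high glucose concentration. Overnight cultures in YP (a rich medium) with 2% glucose were brought to an OD600 of 0.1 in fresh YP, with 2% glucose for one group and 20% for the other, and harvested 1 hour later. The sources used here give no strain. Each of the 5 two-colour arrays carried RNA of both media, with 2% glucose in Cy5 on arrays 1, 3 and 4 and 20% glucose in Cy5 on arrays 2 and 5.

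Yeast makes glycerol from the glycolytic intermediate dihydroxyacetone phosphate in a pair of steps. Glycerol 3-phosphate dehydrogenase, the product of GPD1 or GPD2, reduces it with NADH, and glycerol 3-phosphatase, the product of GPP1 or GPP2, removes the phosphate. Glycerol is the main osmolyte of yeast, and the pathway also reoxidises surplus NADH when respiration is limited. GPD1 and GPP2 are known as the isoforms induced in high osmolarity, through the HOG (high osmolarity glycerol) kinase pathway, and GPD2 and GPP1 are known for their part in redox balance under low oxygen.

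All values are log2 ratios of RNA labelled 20% over RNA labelled 2% glucose, so that a value of -1 is a halving in the RNA labelled 20%. This direction rests on the dye labels, and it runs against the known induction of GPD1 and GPP2 in high osmolarity. In the table as deposited, before it was turned to follow the labels, GPD1 and GPP2 are positive. If the dye labels were exchanged, every sign below would turn. No scanner values were at hand for arrays 1 to 3, so their direction and scale are assumed to match the other columns. All pairs of arrays correlated positively across genes, from 0.256 between arrays 1 and 4 to 0.951 between arrays 4 and 5. Arrays 1 to 3 stood apart from arrays 4 and 5, so results are also given within each set. This split was made with earlier results of these data known. The p-values for it, and those of fits that hold a term for it, are thus not tests of a split fixed beforehand. The arrays are the replicates here. The labels do not say whether they hold separate cultures or repeats of shared RNA, so a p-value covers the spread between arrays alone, and this spread may be technical. In RNA of whole cultures, fewer cells that express a gene and less RNA per cell cannot be told apart.

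By the dye labels the ratios of GPD1, GPP2 and GPP1 were below 0 on 5 of 5 arrays, and those of GPD2 were above 0 on 5 of 5. Of the ORFs with 5 values, 19.8% were lower on every array and 16.7% higher on every array. The order of the changes, GPD1 lowest, then GPP2, GPP1 and GPD2, was the same on 5 of 5 arrays. In the limma fit over the 5 arrays, 2 of the 4 genes passed the threshold of an adjusted p of 0.05, as did 3.69% of the 5447 ORFs tested. GPP2 was lower, as were 1.45% of all ORFs, and GPD2 was higher, as were 2.24%.

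GPD1 (YDL022W, chromosome IV in the scanner files) encodes the dehydrogenase induced in osmostress. Its log2 ratio was -2.02 on array 1, -1.78 on array 2, -2.42 on array 3, -6.88 on array 4 and -6.51 on array 5. Arrays 4 and 5 lay far below the other 3, and the sets did not overlap. On arrays 1, 2 and 3 this change was number 9, 10 and 6 from the lowest among 5659, 5362 and 5642 ORFs. On array 4 it was number 2 from the lowest of 5792 and on array 5 the lowest of 5556. GPD1 was thus at the extreme of its array in both sets, although its ratio was 4.21-fold lower in the RNA labelled 20% in the mean of arrays 1 to 3 and 104-fold lower in the mean of arrays 4 and 5. Over the 5 arrays the fit gave -3.96 ± 0.97 (SE), which did not pass (adjusted p = 0.0733). When the fit also held a term for the set of arrays, GPD1 was at -4.35 ± 0.08 (adjusted p = 2.83e-05). Such an estimate lies midway between the fitted levels of the sets, and no array had a GPD1 value near it. In that fit 4 of 4 genes passed, as did 29.7% of all ORFs, 16.4% higher and 13.3% lower. Without a term for the dye GPD1 passed too, at -3.92 ± 0.88 (adjusted p = 0.0314). In that fit 919 of the 5447 ORFs tested passed, 456 of them lower, against 201 with the dye term.

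GPD2 (YOL059W, chromosome XV) encodes the second dehydrogenase isoform. Its log2 ratio was 0.54 on array 1, 0.84 on array 2, 0.73 on array 3, 0.80 on array 4 and 0.96 on array 5. The values of the sets overlapped, and the whole range over the arrays was 0.43, against 5.11 for GPD1. GPD2 was higher than 92.5% to 96.3% of the ORFs on each array, so it was near the upper end of each array without being among its most changed genes. The fit gave 0.79 ± 0.08 (SE, adjusted p = 0.0294), a 1.73-fold higher level in the RNA labelled 20%. The size was nearly the same when 1 array was left out, from 0.76 to 0.83. The call ended without array 1 (adjusted p = 0.061), array 2 (adjusted p = 0.103), array 3 (adjusted p = 0.158) or array 5 (adjusted p = 0.16).

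GPP2 (YER062C, chromosome V, named HOR2 in the scanner files) encodes the phosphatase isoform induced in osmostress. Its log2 ratio was -1.33 on array 1, -1.69 on array 2, -1.61 on array 3, -3.26 on array 4 and -3.49 on array 5. The sets did not overlap here either, and the lower values were again those of arrays 4 and 5. It ranked between number 5 and number 45 from the lowest on the arrays. The fit gave -2.33 ± 0.38 (SE), a 5.02-fold lower level in the RNA labelled 20% (adjusted p = 0.043). The call ended without array 1 (-2.51, adjusted p = 0.0946), array 2 (-2.78, adjusted p = 0.0904), array 3 (-2.44, adjusted p = 0.158) or array 5 (-1.88, adjusted p = 0.178).

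GPP1 (YIL053W, chromosome IX, named RHR2 in the scanner files) encodes the other phosphatase isoform. Its log2 ratio was -0.37 on array 1, -0.43 on array 2, -0.88 on array 3, -1.60 on array 4 and -1.59 on array 5. The change was small on arrays 1 and 2, where 13.5% and 7.68% of the ORFs were lower still, and larger on arrays 4 and 5, where 0.656% and 0.738% were. The fit gave -0.98 ± 0.24 (SE) and did not pass (adjusted p = 0.0733). It passed in the fit with the set term (-1.07 ± 0.10, adjusted p = 0.0016), as did 29.7% of all ORFs. It also passed without the dye term (-0.98, adjusted p = 0.0307), as did 919 of the 5447 ORFs tested. GPP1 and GPP2 are close paralogs and their spots may share signal, which was not tested.

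**Figure D1:**
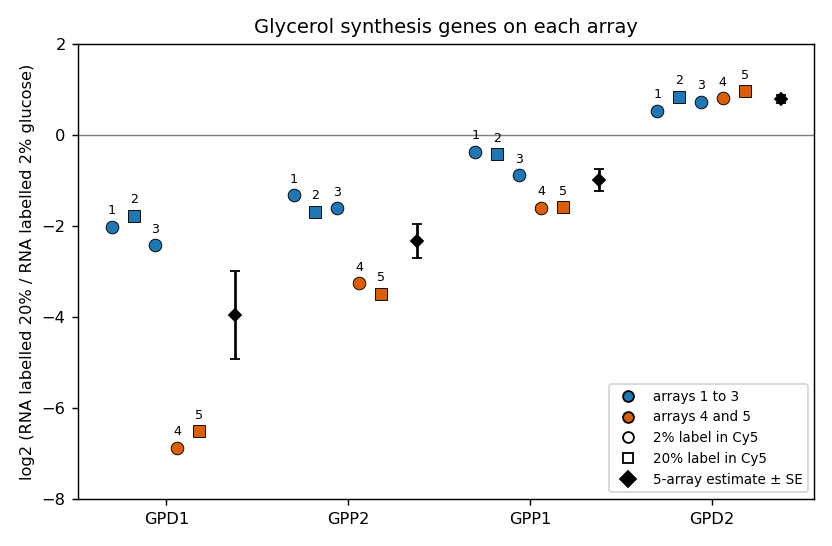
Log2 ratio of RNA labelled 20% over RNA labelled 2% glucose (y axis) for each glycerol synthesis gene (x axis) on arrays 1 to 5, with circles for 2% glucose in Cy5, squares for 20% glucose in Cy5 and diamonds for the 5-array estimate with its SE. GPD1 lies between -2.42 and -1.78 on arrays 1 to 3 and at -6.88 and -6.51 on arrays 4 and 5, while GPD2 stays between 0.54 and 0.96.

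The isozymes of each step were compared on the same array. The log2 ratio of GPD1 minus that of GPD2 was -2.56, -2.61 and -3.15 on arrays 1, 2 and 3, and -7.69 and -7.47 on arrays 4 and 5. The ratio of the 2 dehydrogenase genes thus differed between the labels by 5.90-fold on array 1 and by 206-fold on array 4. The mean difference was -4.70 ± 2.64 (SD, n = 5). For the phosphatases, GPP2 minus GPP1 was -0.96, -1.26 and -0.73 on arrays 1, 2 and 3, and -1.66 and -1.89 on arrays 4 and 5, with a mean of -1.30 ± 0.48 (SD, n = 5). In both steps the gene known for osmostress had the lower ratio on 5 of 5 arrays. An exact two-sided permutation test of the signs gave p = 0.0625 for each difference, which is the smallest p that 5 arrays allow. GPD1 and GPP2 were closest to each other on array 2, where GPD1 minus GPP2 was -0.09. On array 4 GPD1 minus GPP2 was -3.62, so their near-equal change on array 2 did not hold on every array.

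The size of the change differed between the sets of arrays for 3 of the 4 genes, all with lower ratios on arrays 4 and 5. Of all ORFs tested, 6.17% had a lower ratio on arrays 4 and 5 past the threshold and 6.61% a higher one, in the limma fit that includes the set term. The mean of GPD1 was -2.07 ± 0.33 (SD, n = 3) in the first set and -6.70 ± 0.26 (SD, n = 2) in the second, with a fitted difference of -4.69 ± 0.17 (SE, adjusted p = 0.00102). GPP2 was at -1.54 ± 0.19 (SD, n = 3) and -3.38 ± 0.16 (SD, n = 2), a difference of -1.80 ± 0.15 (SE, adjusted p = 0.0041). The difference of GPP1, -1.06 ± 0.19 (SE, adjusted p = 0.0247), was the smallest of these.

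GPP1 was at -0.56 ± 0.28 (SD, n = 3) and -1.60 ± 0.01 (SD, n = 2) in the sets. Its difference did not pass without array 2 (-0.98, adjusted p = 0.128), array 4 (-1.16, adjusted p = 0.129) or array 5 (-0.98, adjusted p = 0.0871). GPD2, at 0.70 ± 0.15 (SD, n = 3) and 0.88 ± 0.11 (SD, n = 2), had a difference of 0.15 with a 95% interval from -0.18 to 0.49 (adjusted p = 0.48 in limma). Within each set fitted alone, 4 of 4 genes passed with the signs given above. On arrays 1 to 3, 17.4% of all ORFs passed, 11.5% higher and 5.96% lower. On arrays 4 and 5, 54.4% passed, 27.9% higher and 26.6% lower, so passing there is not particular to these genes. The set of arrays cannot be told apart from anything else that differed between them, since the labels name no batch.

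**Figure D2:**
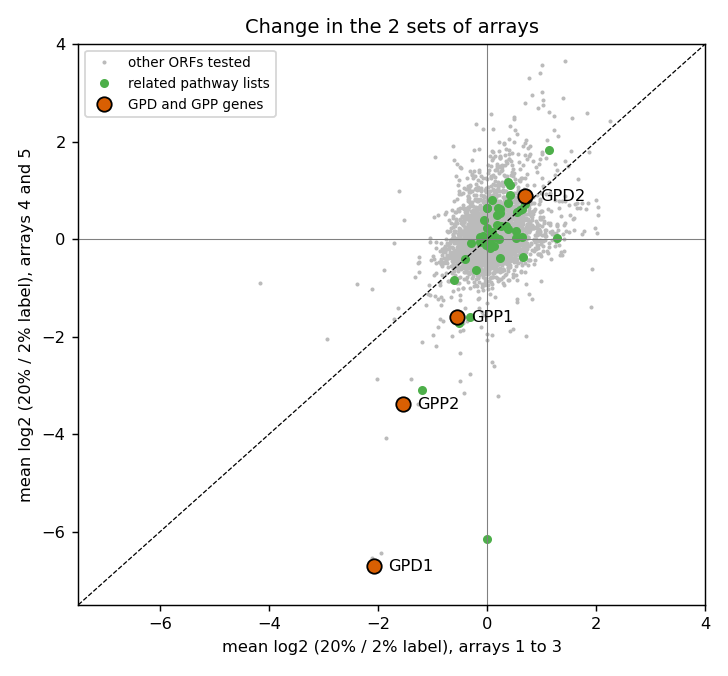
Mean log2 ratio of RNA labelled 20% over 2% glucose on arrays 4 and 5 (y axis) against that on arrays 1 to 3 (x axis), 1 point per ORF, with the glycerol synthesis genes in orange, genes of the related lists in green and the line of equal change dashed. GPD1, at -2.07 and -6.70, lies far below the line, and GPD2, at 0.70 and 0.88, close to it.

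For arrays 4 and 5 the scanner files give the brightness of each spot and its local background in both dyes. The GPD1 spot of array 4 had a median of 49039 in the 2% label (Cy5) and of 522 in the 20% label (Cy3), over backgrounds of 124 and 125. On array 5, with the dyes swapped, it had 17845 in the 2% label (Cy3) and 333 in the 20% label (Cy5), over 114 and 96. The dim label of this gene was thus the 20% label in either dye, at 4.18 and 3.47 times background, and both spots were measurable. The GPP2 spot had 23643 against 2719 on array 4 and 24041 against 3562 on array 5, at least 30.9 times background in each label. The GPP1 spot was bright in each label, with 54139 against 17396 on array 4 and 20556 against 13497 on array 5. The GPD2 spot had 3929 in the 2% label against 6486 in the 20% label on array 4 and 1152 against 2619 on array 5, so its brighter label was the 20% label in both dyes. The scanner counted no flag against any of these 8 spots, and no median reached saturation.

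The GPP2 and GPD2 spots were uneven. Over the pixels of the GPP2 spot in the 2% label the standard deviation was 70.4% of the spot mean on array 4 and 47.6% on array 5. For GPD2 it was 31.5% and 60.5%, so GPD2 was the more uneven of the pair on array 5. For GPP2 the unshifted ratio of the spot means was -3.17 and -2.66 on arrays 4 and 5, against -3.16 and -2.77 from the spot medians. For GPD2 the means gave 0.75 and 1.13 and the medians 0.73 and 1.23. The ratios were thus near each other by either summary.

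**Figure D3:**
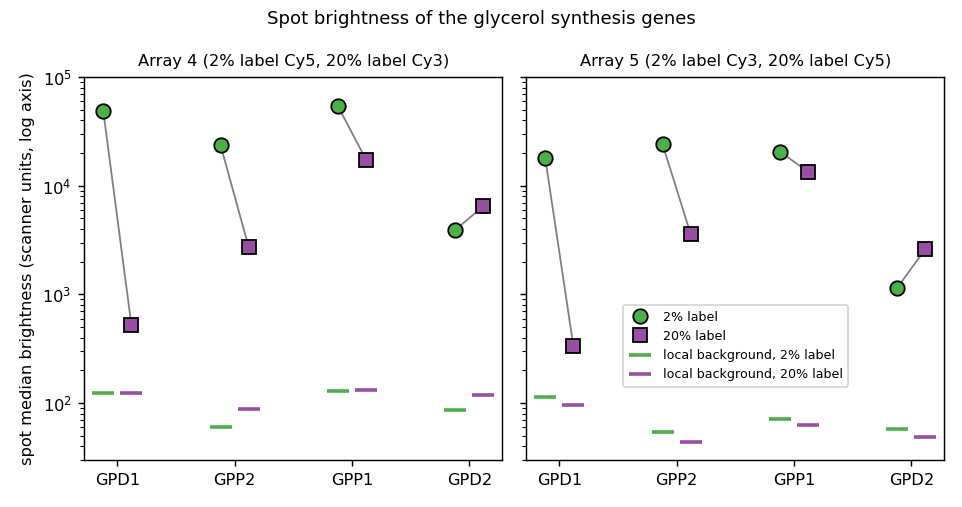
Median spot brightness in scanner units (y axis, log scale) of each glycerol synthesis gene (x axis) on arrays 4 and 5, with green circles for the 2% label, purple squares for the 20% label and dashes for the local background. GPD1 drops from 49039 to 522 on array 4 and from 17845 to 333 on array 5, whichever dye carries the label.

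The deposited table and the scanner ratio differed most for the bright spots of array 5. For GPP1 the table gave -1.59 on array 5 and the scanner file's normalized ratio -0.90, a shift of -0.69. For GPP2 the table gave -3.49 and the scanner file -3.06. The shifts of GPD1 and GPD2 on array 5 were 0.01 and 0.02. All spots of array 5 with a mean log2 brightness between 13 and 14 had a median shift of -0.43, and those above 14 of -0.77, so the shift moved with brightness and was not particular to the phosphatase genes. On array 4 these medians were -0.005 and -0.07. A loess curve fitted against brightness within each printing block of the array gave the table's values to within an SD of 0.01 on array 4 and 0.02 on array 5. With the scanner ratios of arrays 4 and 5 in place of the table, GPP1 was at -0.79 ± 0.19 over the 5 arrays, and its difference between the sets no longer passed (-0.72, adjusted p = 0.0799). GPD1, GPD2 and GPP2 kept their side of the threshold in both the 5-array estimate and the set difference. GPP2 was then at -2.18 ± 0.32 (adjusted p = 0.0491).

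**Figure D4:**
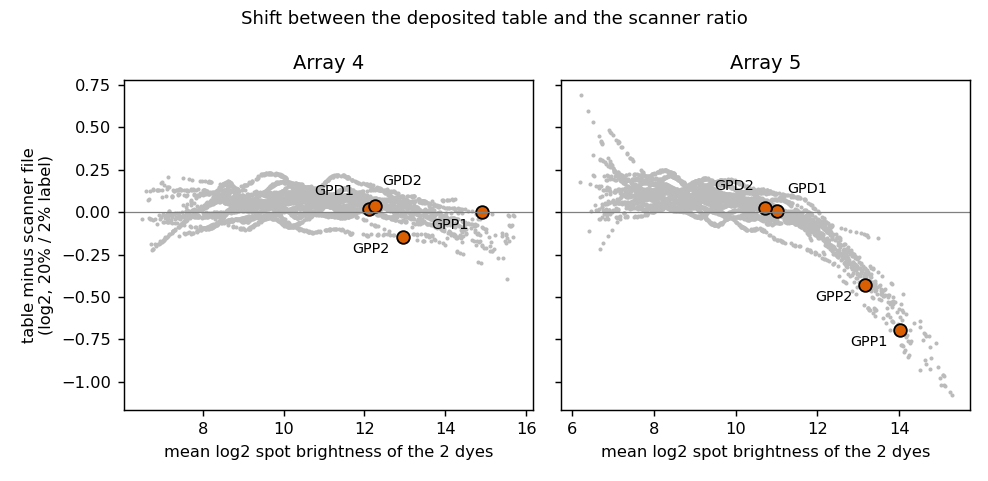
Deposited table minus scanner ratio (y axis, log2 of the 20% over the 2% label) against the mean log2 brightness of a spot in both dyes (x axis) on arrays 4 and 5, 1 grey point per spot, with the glycerol synthesis genes in orange. On array 5 the shift grows with brightness and reaches -0.43 for GPP2 and -0.69 for GPP1.

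The genes nearest to each member in pattern were taken by the root mean square difference of their log2 ratios over the 5 arrays, among 4145 other named ORFs with 5 values. By the table's values RTC3 came first for GPD1 (0.34). Its spot under the 20% label was at only 1.19 and 1.39 times background on arrays 4 and 5, so its ratios there are bounds and its distance from GPD1 is not known. The next were GPP2 (2.16) and the ferric reductase FRE4 (2.23), which are far off. Nearest to GPP2 were YPR1, an aldo-keto reductase (0.35), FRE4 (0.64) and THI4 of thiamine synthesis (0.85). Nearest to GPP1 were POF1 (0.22), the stress transcription factor MSN2 (0.24) and PIH1 of a chaperone complex (0.25). GPD2 had several close neighbours, the dihydrolipoamide dehydrogenase LPD1 (0.11), the gamma-glutamyltransferase ECM38 (0.11) and the biotin synthase BIO2 (0.12). LPD1 (0.77 ± 0.10, adjusted p = 0.0373), ECM38 (0.81 ± 0.10, adjusted p = 0.0323) and BIO2 (0.81 ± 0.09, adjusted p = 0.0319) passed in the 5-array limma fit, as did 2.24% of all ORFs in this direction. These genes were picked for values near those of GPD2, so that they passed as GPD2 did follows from the choice.

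Genes around the pathway were counted in the same fit, where the median of all ORFs was 0.003. Past the threshold in it were 2.24% of all ORFs as higher and 1.45% as lower. Of 11 tested genes of glycerol export, uptake and breakdown, 1 was higher past the threshold and 0 lower, with a median of 0.10. In the fit with the set term 1 was higher and 3 were lower, against 16.4% and 13.3% of all ORFs. At an unadjusted p under 0.05 limma gave 2 higher and 3 lower of the 11, against 28.5% of all ORFs in either direction. The one called was ASK10, a regulator of the glycerol channel Fps1, at 1.42 ± 0.16 (adjusted p = 0.0322). The reductase YPR1 was at -1.996 ± 0.41 (adjusted p = 0.0554), and the dihydroxyacetone kinases DAK1 and DAK2 were at -0.84 ± 0.28 (adjusted p = 0.123) and 0.28 ± 0.09 (adjusted p = 0.118). In this list 3 of 11 genes had lower ratios on arrays 4 and 5 than on arrays 1 to 3 past the threshold, as did 6.17% of all ORFs. They were the glycerol symporter STL1 (fitted difference -6.65, adjusted p = 0.00165), YPR1 (-1.90, adjusted p = 0.00771) and DAK1 (-1.29, adjusted p = 0.00772). ASK10 had a higher ratio there past the threshold (0.68, adjusted p = 0.0428 in limma), as did 6.61% of all ORFs. STL1, chosen after its values were seen, had a log2 ratio of -0.10 on array 1, 0.08 on array 3, -6.66 on array 4 and -5.64 on array 5, and no value on array 2. It was thus near 0 in the first set and far below 0 in the second, unlike GPD1, which was below 0 on every array. The STL1 spot under the 20% label was at 3.42 and 3.72 times background on arrays 4 and 5, which limits its ratios there. The 5-array estimate of STL1, -3.93 (adjusted p = 0.165), pools these unlike values. In the fit with the set term STL1 was at -2.82 (adjusted p = 0.000329). That estimate pools them too, since it lies midway between the fitted levels of the sets and near the value of no array. The glycerol channel FPS1, likewise chosen, was at 0.10 over the 5 arrays.

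Upstream, 0 of 6 tested genes that supply dihydroxyacetone phosphate or act on the trioses passed, and 4 were higher at an unadjusted p under 0.05 in limma, where 28.5% of all ORFs lay in either direction. Their median was 0.38 and 6 of 6 estimates were positive, with TDH3, a glyceraldehyde 3-phosphate dehydrogenase, highest at 0.64 ± 0.12 (adjusted p = 0.0539). TDH1 (0.37), TDH2 (0.41) and the phosphofructokinase subunit PFK1 (0.39) had adjusted p-values from 0.0799 to 0.105. In the fit with the set term, 6 of 6 were higher past the threshold, as were 16.4% of all ORFs. Of 7 genes listed for cytosolic NADH reoxidation, the other role of glycerol synthesis, 2 were higher and 0 lower. The list had a median of 0.63 and 7 of 7 positive estimates. Being on the list does not show that an enzyme reoxidises NADH, ADH2 among them, and the direction in which each works was not tested. The genes called were the alcohol dehydrogenases ADH1 (0.63 ± 0.08, adjusted p = 0.0323) and ADH2 (0.71 ± 0.07, adjusted p = 0.0294). Their sizes were close to that of GPD2. ADH1 and ADH2 are paralogs, as are TDH1, TDH2 and TDH3, and spots of paralogs may share signal, which was not tested. The calls of ADH1 and ADH2 may thus not be separate. ADH5 (0.72 ± 0.18, adjusted p = 0.0724) and the external NADH dehydrogenase NDE1 (0.71 ± 0.18, adjusted p = 0.0744) did not pass. With the set term in the fit 5 of the 7 genes were higher past the threshold and 0 lower, against 16.4% and 13.3% of all ORFs.

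In the HOG branch 1 of 21 tested genes was lower and 0 higher, with a median of 0.02, and limma gave 4 lower and 3 higher at an unadjusted p under 0.05, where 28.5% of all ORFs lay. In the fit with the set term 4 were higher and 4 lower, where 16.4% of all ORFs were higher and 13.3% lower. The gene called was the phosphatase PTP3, a negative regulator of the Hog1 kinase, at -0.71 ± 0.09 (adjusted p = 0.0335). Not every phosphatase gene of this list was lower, and the highest estimate of the list, 0.75 ± 0.31 (adjusted p = 0.178), was that of another one. HOT1, a transcription factor that acts on GPD1, was at -0.40 ± 0.08 (adjusted p = 0.054), lower on 5 of 5 arrays. SKO1, another factor of this branch, was at 0.29 ± 0.08 (adjusted p = 0.0854) and MSN2 at -1.02 ± 0.26 (adjusted p = 0.0787). The paralog of MSN2 in this list went the other way, at 0.54 ± 0.16 (adjusted p = 0.0977). Of the kinases known to act on the dehydrogenases, YPK1 was higher at 0.54 ± 0.08 (adjusted p = 0.043) and SNF1 was at 0.23 ± 0.08 (adjusted p = 0.138), with 1 of 2 tested genes past the threshold and a median of 0.38. The acyltransferases that use glycerol 3-phosphate for lipids, GPT2 and SCT1, were at 0.30 ± 0.22 and -0.08 ± 0.10, with 0 of 2 past the threshold and 0 at an unadjusted p under 0.05 in limma.

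**Figure D5:**
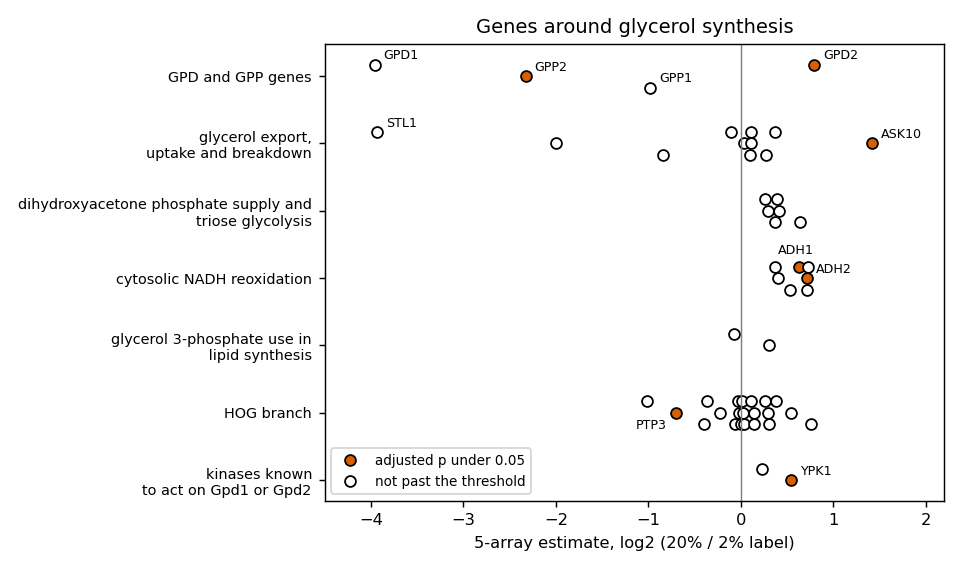
The 5-array estimate, log2 of RNA labelled 20% over 2% glucose (x axis), of the glycerol synthesis genes and of each tested gene of the related lists (y axis, 1 row per list), with filled points past an adjusted p of 0.05. GPD1, at -3.96, and STL1, at -3.93, are the lowest and are open points, but STL1 was near 0 on arrays 1 and 3 (-0.10 and 0.08).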

How the data were processed

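RNA of both media was measured on 5 two-colour arrays. The authors deposited a table of normalized log2 ratios between the channels, and the sources used here name no software. The scanner files of arrays 4 and 5 hold, per the file headers, the intensity of each spot and its background at 635 nm (Cy5) and 532 nm (Cy3), flags and log2 ratios. The table has 6218 spots of 6205 ORFs, and 13 ORFs have 2 spots, which were averaged. Values of 10 or more in size on arrays 4 and 5 (258 and 262) were divided by 10: no value between 1 and 10 there has 4 decimals, against 165 on array 1. Among the 4 genes this touched GPP1 and GPP2 on both arrays and GPD1 on array 5. By the dye labels and the scanner files the table is 2% over 20% glucose on arrays 4 and 5, and all values were multiplied by -1. Above background, Cy5 had a median intensity of 1324 (array 4) and 695 (array 5) and Cy3 of 1269 and 593. Precision is limited by the number of arrays.

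Ratios were fitted with limma 3.58.1 in R 4.3.3 (lmFit, eBayes) with terms for glucose label and dye. An ORF was tested where 4 or more arrays, of both dye orientations, gave a value, which left 5447 ORFs. Tests were two-sided, adjusted by Benjamini-Hochberg over all ORFs tested, with a threshold of 0.05. The sets of arrays (1 to 3, 4 and 5) were compared through a further term. With that term in the fit, the glucose estimate lies midway between the fitted levels of the sets. The fit on arrays 4 and 5 alone has no dye term and each set alone has 1 residual degree of freedom. Isozymes were compared with an exact sign-flip permutation test (scipy 1.17.1). The procedure was tested on simulated data with noise drawn separately for each array. That noise held no sets of arrays, so the test does not cover the spread between the sets seen here. Names come from a RefSeq gene table (assembly R64); the arrays name no build, so no positions are given. Genes named are the 4 members, the 3 nearest to each in pattern, and in each list those past the threshold and the 4 with the smallest p. The members, the lists and the split into sets of arrays were chosen with earlier results of these data known. Alternatives were the table as deposited, scanner intensities (normexp with offset 50 and loess; the scanner ratio), centring, filters, the terms of the fit, turned signs and leaving out each array. Print-tip loess (span 0.3) and spot means were added after seeing the data.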

Additional observations from a re-analysis of the deposited data

Results flagged for a closer look

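For 13 of the 34 genes named, the change differed between arrays 4 and 5 and arrays 1 to 3 by the term for the set of arrays, as it did for 12.8% of all ORFs. Among the glycerol synthesis genes the difference was -4.69 for GPD1, -1.80 for GPP2 and -1.06 for GPP1. Among their nearest genes it was -4.52 for RTC3, from ratios that are bounds on arrays 4 and 5, -1.90 for YPR1, -0.86 for THI4, -1.28 for POF1, -1.19 for MSN2 and -1.40 for PIH1. These were named for being near to the members on the same arrays, so their differences are not independent of those of the members. In the related lists it was -6.65 for STL1, the largest in size of the 13 fitted values, -1.29 for DAK1, 0.68 for ASK10 and 0.77 for ADH5. The value of STL1 is limited by its dim 20% label on arrays 4 and 5. It comes from a fit with a dye term and no value on array 2. In size it exceeds the gap between the set means of STL1, -0.01 and -6.15. The labels name no batch, and what else differed between the sets of arrays was not tested.

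LPD1, a gene near GPD2 in pattern, stood apart on array 1, at 0.41 against 0.81 to 0.86 on the other arrays. Chance alone sets off such a mark in about 1 of 20 groups.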

How the results depend on the processing

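Every sign turns if the dye labels are exchanged, to 3.96 for GPD1, -0.79 for GPD2, 0.98 for GPP1 and 2.33 for GPP2, and to 4.70 and 1.30 for the differences of the dehydrogenase and phosphatase isozymes; 79 genes are then higher and 122 lower. With the table as deposited, 1 gene was higher and 0 lower (1341 at an unadjusted p under 0.05 in limma), GPD2 at 0.79 (adjusted p = 0.101) and GPP2 at -15.07 (adjusted p = 0.303) no longer passed, nor did GPD1 in the set difference (-29.80) or within arrays 4 and 5 (-36.00). The scanner ratio gave 69 genes higher and 40 lower and ended the call of GPP1 in the set difference (-0.72). Without the dye term GPD1 (-3.92) and GPP1 (-0.98) passed, with 463 genes higher and 456 lower, and in the fit with the set term they passed at -4.35 and -1.07, with 894 and 724. With all 5 values required, 120 genes were lower.

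Leaving out 1 array gave -5.14 to -2.78 for GPD1, 0.76 to 0.83 for GPD2, -1.27 to -0.69 for GPP1 and -2.78 to -1.88 for GPP2, with 0 to 67 genes higher and 0 to 36 lower. Without array 3 limma called 0 genes, with 1096 at an unadjusted p under 0.05. The set difference then ran from -4.80 to -4.60 for GPD1, 0.10 to 0.20 for GPD2, -1.20 to -0.94 for GPP1 and -1.87 to -1.73 for GPP2, and the isozyme differences from -5.23 to -3.95 and from -1.44 to -1.15. Of 182 recomputed values, 135 kept their direction and side of the threshold, or for counts stayed within 1.5 times. The others were 6 that reversed, 16 that no longer passed, 4 that passed only then and 21 counts that moved further. The 6 reversals are those of the turned signs and were fixed in advance. Leaving out dim spots or requiring all 5 values left the 5-array estimates of the glycerol synthesis genes as they were. None of these genes had a dim spot or a missing value. Print-tip loess gave nearly the table's own values. The 135 thus include values that could hardly change. For the isozyme differences the permutation p was 0.0625, or 0.125 with 1 array left out. These are the smallest possible, so their side of the threshold could not change and only their direction was open. Apart from the isozymes, which were compared within each array, no further pairing was possible. Each ratio already sets both media against each other on 1 array, and the arrays share no replicate numbers. No depth can be given for arrays; the dim label of GPD1, at 3.47 to 4.18 times background, limits its ratio on arrays 4 and 5.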
